A study of Mus musculus with 6 samples.

Results

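The matrilins and the thrombospondins are extracellular matrix proteins that assemble into oligomers and link other matrix molecules to one another. The genes examined here were *Matn1* to *Matn4*, which encode the 4 matrilins, *Thbs1* to *Thbs4*, which encode thrombospondins 1 to 4, and *Comp*, which encodes cartilage oligomeric matrix protein, a member of the thrombospondin family. They were taken by symbol, and all 9 were found among the 22032 genes of the deposited mouse matrix. Each had a mean of at least 1 TPM (the transcripts of a gene, corrected for length, in 1000000 of all transcripts) over the 6 samples and was tested.

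RNA-seq had been performed on 3 samples of knee chondrocytes from mouse embryos and on 3 from adult mice aged 2 months. The embryonic stage is E16.5 in the study's text, whereas the sample labels give 16.5 weeks, and the study's stage is used here. The embryonic cells were sorted as LIN-ALP-BMPR1B+ and those of the adults, male B6 mice, as CD31-CD45-Ter119-ALP-BMPR1B+. BMPR1B is a receptor for bone morphogenetic proteins carried by chondrocytes, ALP is alkaline phosphatase, and CD31, CD45 and Ter119 mark endothelial and blood cells, which LIN (lineage) markers stand for. The strain and sex of the embryos and the number of animals in a sample were not given in the sources used here, so that p-values measure the spread between these samples. No mutation or treatment is named for either group.

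Matrilins carry von Willebrand factor A domains, by which they bind collagen fibrils and aggrecan, and end in a coiled coil that joins the subunits. Matrilin-1 and matrilin-3 are largely proteins of cartilage, while matrilin-2 and matrilin-4 are also made in other connective tissues. Thrombospondins bind calcium, matrix proteins and cell surface receptors. Thrombospondin-1 and thrombospondin-2 form trimers and hold type 1 repeats that bind CD36, while thrombospondin-3, thrombospondin-4 and COMP form pentamers and lack those repeats. Mutations in human *COMP* and *MATN3* cause multiple epiphyseal dysplasia.

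The sorted cells of both stages held transcripts of chondrocyte genes. Summed over 8 chondrocyte markers, the level was 22945 to 24167 TPM in the embryonic samples and 7443 to 10307 TPM in the adult samples. Of the 8, 5 fell (*Col2a1*, *Col9a1*, *Col11a2*, *Cnmd* and *Hapln1*), *Sox9* rose, and *Acan* and *Snorc* did not pass the threshold. *Acan*, encoding aggrecan, was at 1306, 1018 and 1247 TPM in the embryo and at 1265, 2672 and 1756 TPM in the adult. For *Acan* the limma adjusted p was 0.0717, which misses the threshold. Markers of other cells also differed. The sum of 6 fibroblast and perichondrium markers was 9602 to 10898 TPM in the embryonic and 814 to 1435 TPM in the adult samples, and 5 of the 6 fell, *Pdgfra* not passing the threshold. Of 6 tendon markers 3 fell (*Tnmd*, *Scx* and *Kera*) and *Myoc* rose, while *Mkx* and *Egr1* did not pass the threshold. The 6 smooth muscle and pericyte markers summed to 192 to 195 TPM in the embryo and 9.75 to 10.7 TPM in the adult, and all 5 tested fell. The sum of the 6 hypertrophic chondrocyte markers went the other way, from 581 to 828 TPM up to 3641 to 6006 TPM, with 4 of 5 tested higher and *Panx3* lower. Most of this sum was *Spp1*, at 553, 714 and 561 TPM in the embryo and 2368, 3508 and 4376 TPM in the adult. *Ihh* was not tested, at 2.23, 0.597 and 1.13 TPM in the embryo and listed at 0 in the adult. Among 6 osteoblast markers *Bglap* and *Bglap2* rose from values listed at 0, *Bglap* to 26.8, 15.8 and 83.9 TPM and *Bglap2* to 13.4, 0.26 and 43.9 TPM. *Col1a1* and *Dmp1* fell, and *Sp7* and *Ifitm5* did not pass the threshold. The sum of the list went from 4881 to 5984 TPM down to 212 to 769 TPM. It was mostly *Col1a1*, at 5555, 4862 and 5971 TPM in the embryo and 170, 603 and 637 TPM in the adult. The 7 leukocyte markers together reached 5.71 to 14.7 TPM in the embryonic and 20.4 to 199 TPM in the adult samples. The part of these cells in the differences below was not tested. As the libraries are bulk samples, fewer cells of a type and less RNA per cell cannot be told apart.

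All 9 genes passed an adjusted p under 0.05 between the stages, 2 higher and 7 lower in the adult. Over all genes 45.3% of 13125 tested genes passed this threshold, 23.9% being higher and 21.4% lower. In 8 of the 9 genes the values of the stages did not overlap, 1 lying higher in the adult and 7 lower, where 56.5% of all tested genes showed no overlap (30.7% higher and 25.9% lower). The median adult minus embryonic difference of the 9 genes was -3.13 on the log2(TPM + 1) scale, against 0.16 over all tested genes. Another scaling of the samples moved the median of all genes, which became 0.25 when the 20 highest genes were left out, 0.09 after quantile normalization and 0.03 after scaling by the median of ratios. The median of the 9 genes lay between -3.26 and -3.05 under the same scalings. A difference on this scale understates the change of a low gene. The calls of 7 genes held under all 16 alternatives tried, and those of *Thbs1* and *Thbs4* did not.

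**Figure D1:**
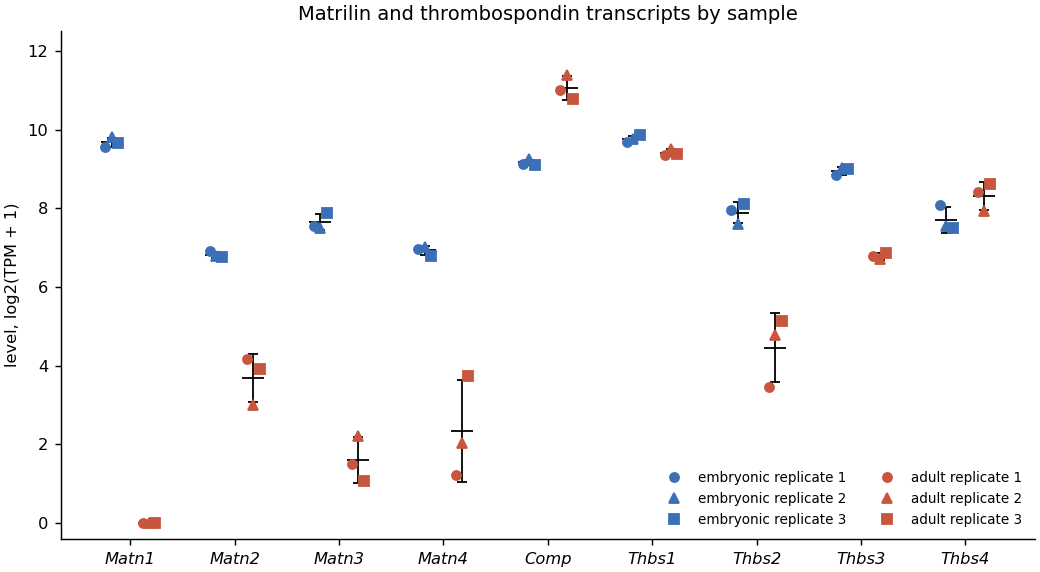
Level of each gene as log2(TPM + 1) in the 3 embryonic (blue) and 3 adult (red) samples, with the symbol giving the replicate and the black bars the mean and SD of the stage. The 4 matrilins and *Thbs2* sit between 6.82 and 9.68 on average in the embryo and at or under 4.46 in the adult, while *Comp* is the gene whose adult values all lie above its embryonic ones.

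*Matn1*, encoding matrilin-1, lies on chromosome 4 of GRCm38 from 130944385 to 130955475 on the plus strand, and its transcript of 2001 bases has 8 exons. The embryonic samples held 752, 891 and 814 TPM, and the 3 adult samples were all listed at 0 TPM. By mean embryonic level it ranked 162 of 22032 genes. The stages did not overlap (limma adjusted p = 5.6e-08), and no fold is given against a stage listed at 0. Its difference was the lowest of all 13125 tested genes. Of the 273 genes with at least 500 TPM in every embryonic sample, *Matn1* was the 1 gene listed at 0 in every adult sample, and with a limit of 100 TPM there were 7 such genes. *Hist1h2af* just missed the limit of 500 TPM, at 592, 500 (rounded) and 848 TPM, as did *Hist1h2ap* at 644, 784 and 486 TPM. Both were listed at 0 in every adult sample. A listed 0 need not be an absent transcript. Over the whole matrix, 6 values of 0 stood beside at least 20 TPM in both other samples of the stage. That count covers a 0 in a single sample, so it cannot tell what the 0 of *Matn1* in all 3 adult samples means. No stretch of 50 bases, the length of the reads, was shared between the *Matn1* transcript and the transcripts of another gene, and no other annotated gene overlapped it.

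*Matn3*, encoding matrilin-3, lies on chromosome 12 from 8947929 to 8972028 on the plus strand. The embryonic samples held 188, 181 and 234 TPM. The adult samples held 1.85, 3.65 and 1.11 TPM, so that the mean was 91.2-fold higher in the embryo. On the log2 scale *Matn3* fell by 6.05 (standard error 0.31, limma adjusted p = 2.3e-06). All adult values lay far below all embryonic ones, and the 3 adult values themselves spread over a wide ratio near the lower end of the scale.

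*Matn4*, encoding matrilin-4, lies on chromosome 2 from 164389393 to 164405160 on the minus strand. The embryonic values were 124, 128 and 110 TPM and the adult values 1.34, 3.11 and 12.4 TPM. It fell by 4.59 (standard error 0.541, limma adjusted p = 2.4e-04), the widest error among the 9 genes. Adult replicate 3 stood above the other adult samples, and without it the difference was -5.29, while without adult replicate 1 it was -4.03. *Matn4* overlaps *Rbpjl* on the opposite strand over 2020 bases, and the counting is not stated to use strand. *Rbpjl* was at 19, 22.5 and 20.6 TPM in the embryo and at 3.26, 6.31 and 4.7 TPM in the adult, and 3.33% of the 50-base stretches of the *Matn4* transcript were shared with it.

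*Matn2*, encoding matrilin-2, lies on chromosome 15 from 34306677 to 34436273 on the plus strand. Its levels were 119, 109 and 108 TPM in the embryonic samples and 16.9, 6.98 and 14.1 TPM in the adult samples. The adult mean of 12.7 TPM was the highest among the matrilins, although its range overlapped that of *Matn4*. *Matn2* fell by 3.13 (standard error 0.294, limma adjusted p = 7.0e-05), the smallest fall of the 4. The opposite-strand gene *9430069I07Rik*, which lies within its span, was listed at 0 in every sample.

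The 4 matrilins together made up 1183, 1310 and 1266 TPM in the embryonic and 20.1, 13.7 and 27.7 TPM in the adult samples. *Matn1* took 63.6%, 68% and 64.3% of the embryonic sum. Of the small sum left in the adult, *Matn2* took 84.2%, 50.8% and 51.1%. The rest was divided unevenly, with *Matn4* at 6.66%, 22.7% and 44.9% and *Matn3* at 9.17%, 26.6% and 4.02%. Set against *Acan*, whose own change did not pass the threshold, the fall was also seen. The mean of *Acan* was higher in the adult, so this reference tends to deepen a fall. Per 1000 TPM of *Col2a1*, which fell, each matrilin still lay lower in every adult sample. On that scale the fall of *Matn2* was smaller, from 8.1, 7.71 and 7.09 TPM to 2.39, 2.2 and 3.66 TPM. *Matn3* was at 144, 178 and 187 TPM per 1000 TPM of *Acan* in the embryo and at 1.46, 1.37 and 0.634 in the adult, and this reference and *Col2a1* were chosen after the values were seen. The fibroblast and perichondrium markers, which were also lower in the adult, include *Dpt*, whose pattern was close to that of *Matn2*. Their part in the matrilin result was not tested.

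The sequence before the start sites of *Matn1* and *Matn3*, the matrilins that fell most, is shown as a description. RefSeq windows on GRCm38.p6 were found for 6 of the 9 genes, those for *Matn2*, *Comp* and *Thbs1* not being held. The 250 bases before each start were searched on both strands for TATAAA (the TATA box), CCAAT (the CCAAT box), GGGCGG (the GC box), ACAAT (a core of SOX factor motifs) and TGGCA (a short element of NFI sites). Capitals mark the matches, and adjoining or overlapping matches run together. The *Matn1* window is chr4:130944135-130944384 and that of *Matn3* is chr12:8947679-8947928, both on the plus strand and written from 5′ to 3′.
*Matn1*: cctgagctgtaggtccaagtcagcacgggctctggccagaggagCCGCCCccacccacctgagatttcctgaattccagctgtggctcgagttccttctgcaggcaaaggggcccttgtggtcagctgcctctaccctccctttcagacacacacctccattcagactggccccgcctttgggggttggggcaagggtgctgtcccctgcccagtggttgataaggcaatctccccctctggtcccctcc
*Matn3*: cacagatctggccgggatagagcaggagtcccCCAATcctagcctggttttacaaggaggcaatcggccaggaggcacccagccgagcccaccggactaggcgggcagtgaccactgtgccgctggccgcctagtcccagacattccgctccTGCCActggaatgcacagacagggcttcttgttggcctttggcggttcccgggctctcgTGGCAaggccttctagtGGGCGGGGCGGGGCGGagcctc
The *Matn1* window held 1 of the motifs, a GC box on the minus strand from -206 to -201 counted from the start site. In the *Matn3* window 3 overlapping GC boxes ran from -22 to -7, with a CCAAT box from -218 to -214 and NFI elements from -98 to -94 and from -39 to -35. The ACAAT core was in none of the windows of the 6 genes. Of 32851 windows of the same length 27.7% held ACAAT, 32.7% a GC box, 42.8% the NFI element, 33.8% a CCAAT box and 12.4% a TATA box. A match describes the letters and not a bound site.

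*Comp* lies on chromosome 8 from 70373558 to 70382066 on the plus strand, and its longest coding transcript has 19 exons. Embryonic levels were 563, 606 and 553 TPM, and adult levels were 2065, 2662 and 1766 TPM. Every adult value lay above every embryonic one, and the mean was 3.77-fold higher in the adult. *Comp* rose by 1.89 (standard error 0.158, limma adjusted p = 3.8e-05), with a 95% interval from 1.53 to 2.25. Its rank by mean level went from 252 to 36 of 22032 genes. Relative to *Acan*, *Comp* was at 431, 595 and 443 TPM per 1000 TPM in the embryo and at 1632, 996 and 1006 in the adult, and the stages did not overlap on this scale either. No 50-base stretch of its longest coding transcript was shared with another gene. Relative to *Col2a1*, which fell, *Comp* was at 38.4, 42.8 and 36.3 TPM per 1000 TPM in the embryo and at 291, 841 and 456 in the adult. *Comp* is also made in tendon. The 6 tendon markers summed to 1139 to 1329 TPM in the embryo and 835 to 1111 TPM in the adult. Most of both sums was *Egr1*, at 968, 941 and 1067 TPM in the embryo and 945, 991 and 689 TPM in the adult. The sum therefore says little of the other markers. *Tnmd* and *Scx* were at 0 to 2.11 TPM and 0 to 4.59 TPM in the adult, *Mkx* had an adult mean of 31 TPM without passing the threshold, and *Myoc* rose to 94.5, 67.8 and 130 TPM. The part of tendon cells in the result for *Comp* was not tested.

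*Thbs1*, encoding thrombospondin-1, lies on chromosome 2 from 118111876 to 118127133 on the plus strand. With 828, 865 and 930 TPM it had the highest mean of the 9 genes in the embryo, although its range overlapped that of *Matn1*. The adult levels were 653, 731 and 662 TPM. The ranges of the stages did not overlap, but the difference was small, with a fall of 0.36 (standard error 0.113, 95% interval from -0.61 to -0.10, limma adjusted p = 0.0303). Of 16 alternatives 6 kept this call, and the adjusted p lay between 0.00745 and 0.407. Leaving out a sample ended the call in 5 of 6 fits, the adjusted p being 0.0639, 0.0753 and 0.122 without embryonic replicates 1, 2 and 3 and 0.0508 and 0.0653 without adult replicates 1 and 3. The direction also rested on the reference, *Col2a1* having fallen and *Acan* being 0.61 higher in the adult without passing the threshold. Per 1000 TPM of *Col2a1*, *Thbs1* was at 56.5, 61.1 and 61 TPM in the embryo and higher, at 92.2, 231 and 171, in the adult, while per 1000 TPM of *Acan* it was lower, at 634, 849 and 745 against 516, 274 and 377. Quantile normalization gave a difference of -0.13 (adjusted p = 0.407) and the rescaling without the 20 highest genes -0.26 (adjusted p = 0.0919). Of the 50-base stretches of its transcript 1.62% were shared with *Gm29233*, an opposite-strand RNA. Thrombospondin-1 is also abundant in platelets. The 6 platelet and megakaryocyte markers together came to 19 to 32.6 TPM in the embryo and 8.39 to 15.3 TPM in the adult. Of these markers *Gp6* was listed at 0 in every sample and *Gp1bb* fell.

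*Thbs2*, encoding thrombospondin-2, lies on chromosome 17 from 14665500 to 14694235 on the minus strand. Embryonic values of 247, 192 and 277 TPM stood against adult values of 10.1, 26.4 and 33.9 TPM. The mean was 10.2-fold higher in the embryo, and *Thbs2* fell by 3.43 (standard error 0.381, limma adjusted p = 1.7e-04). Adult replicate 1 held the lowest value, and the difference was -2.94 without it. Per 1000 TPM of *Col2a1*, which fell, the fall of *Thbs2* was smaller. On that scale it was at 16.9, 13.6 and 18.2 TPM in the embryo and at 1.42, 8.34 and 8.78 in the adult. The 2 genes for the trimeric thrombospondins therefore stood apart from each other in the adult. The ratio of *Thbs1* to *Thbs2* was 3.35, 4.5 and 3.36 in the embryo and 65, 27.7 and 19.5 in the adult. Thrombospondin-2 is made by fibroblasts, and the fibroblast and perichondrium markers moved the same way, as given above. *Postn*, another gene of that list, was at 1458 to 1700 TPM in the embryo and at 9.93 to 26.3 TPM in the adult. The part of these cells in the result for *Thbs2* was not tested.

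*Thbs3*, encoding thrombospondin-3, lies on chromosome 3 from 89215180 to 89226837 on the plus strand. The embryonic samples held 459, 516 and 511 TPM and the adult samples 110, 103 and 115 TPM. The values within each stage lay close together, and *Thbs3* fell by 2.17 (standard error 0.118, limma adjusted p = 3.3e-06). *Mtx1*, encoding a protein of mitochondrial import, is annotated on the opposite strand across the whole of *Thbs3*, and 4.36% of the 50-base stretches of the *Thbs3* transcript were shared with it. *Mtx1* was at 75.7, 41.2 and 53.2 TPM in the embryo and at 67.6, 90.2 and 65.9 TPM in the adult, so that reads of the shared part could not be told apart without strand. Per 1000 TPM of *Col2a1* the stages overlapped, at 31.3, 36.5 and 33.5 TPM of *Thbs3* in the embryo and 15.6, 32.4 and 29.6 in the adult. The order of *Thbs3* and *Thbs4* turned between the stages. Their ratio was 1.69, 2.79 and 2.86 in the embryo and 0.325, 0.424 and 0.291 in the adult.

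*Thbs4*, encoding thrombospondin-4, lies on chromosome 13 from 92751590 to 92794818 on the minus strand. Its levels were 272, 185 and 179 TPM in the embryonic samples and 340, 242 and 394 TPM in the adult samples. Embryonic replicate 1 stood above adult replicate 2, and *Thbs4* was the 1 gene of the 9 whose stages overlapped. The difference was 0.61 (standard error 0.219, 95% interval from 0.12 to 1.11, limma adjusted p = 0.0467). Of 16 alternatives 7 kept the call, with an adjusted p between 0.0165 and 0.16. The call was lost without embryonic replicate 2 (adjusted p = 0.154), embryonic replicate 3 (0.16), adult replicate 1 (0.122) or adult replicate 3 (0.145), and under the median of ratios (0.107). No fit changed the sign. Per 1000 TPM of *Col2a1* the values were 18.5, 13.1 and 11.7 in the embryo and 48, 76.5 and 102 in the adult, and per 1000 TPM of *Acan* they overlapped, at 208, 182 and 143 against 269, 90.6 and 225.

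**Figure D2:**
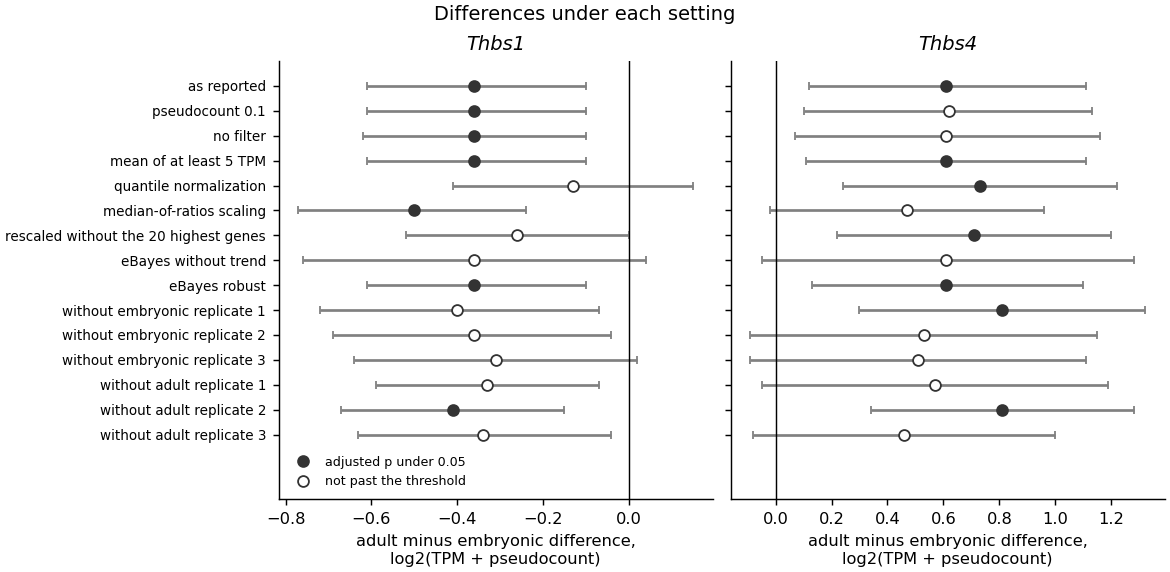
Adult minus embryonic difference of *Thbs1* and *Thbs4* on the log2 scale with 95% intervals, as reported and under the other settings, filled where the adjusted p was under 0.05. The replicate block and the threshold of 0.01 are not drawn. All points for *Thbs1* lie below 0 and all for *Thbs4* above it, while the interval reaches past 0 under several settings of each.

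The window before the *Thbs4* start site, chr13:92794819-92795068 on the minus strand, is shown beside those of the matrilins as that of a gene that did not fall. It was 70.8% G and C, against 62% for *Matn1* and 65.2% for *Matn3*.
*Thbs4*: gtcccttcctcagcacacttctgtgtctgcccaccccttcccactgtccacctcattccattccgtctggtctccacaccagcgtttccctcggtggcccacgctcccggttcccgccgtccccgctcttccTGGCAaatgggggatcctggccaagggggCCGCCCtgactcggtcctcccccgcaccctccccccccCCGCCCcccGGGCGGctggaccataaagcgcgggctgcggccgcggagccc
It held 3 GC boxes, from -89 to -84, from -51 to -46 and from -42 to -37, and an NFI element from -118 to -114. The window of *Thbs3*, which fell, held a GC box from -21 to -16 and an NFI element that overlapped a CCAAT box. The GC box and the NFI element were thus present before genes of both directions.

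*Comp* and the 4 thrombospondin genes together made up 2369, 2364 and 2449 TPM in the embryonic and 3178, 3764 and 2971 TPM in the adult samples. This sum was higher in every adult sample, the opposite of the matrilins, but the rise was that of *Comp*. Among the thrombospondin genes *Thbs1*, *Thbs2* and *Thbs3* were lower in the adult, and *Thbs4* was 0.61 higher. *Comp* took 23.8%, 25.6% and 22.6% of it in the embryo and 65%, 70.7% and 59.4% in the adult. *Thbs3* took 19.4%, 21.8% and 20.9% in the embryo and 3.47%, 2.73% and 3.86% in the adult. The trimeric *Thbs1* and *Thbs2* summed to 1076, 1057 and 1207 TPM in the embryo and to 663, 757 and 696 TPM in the adult. The pentameric *Thbs3*, *Thbs4* and *Comp* summed to 1293, 1307 and 1242 TPM and to 2515, 3007 and 2275 TPM. This rise was also that of *Comp*, as *Thbs3* lost more TPM than *Thbs4* gained. The total of all 9 genes, 3552 to 3715 TPM in the embryo and 2999 to 3778 TPM in the adult, overlapped between the stages.

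**Figure D3:**
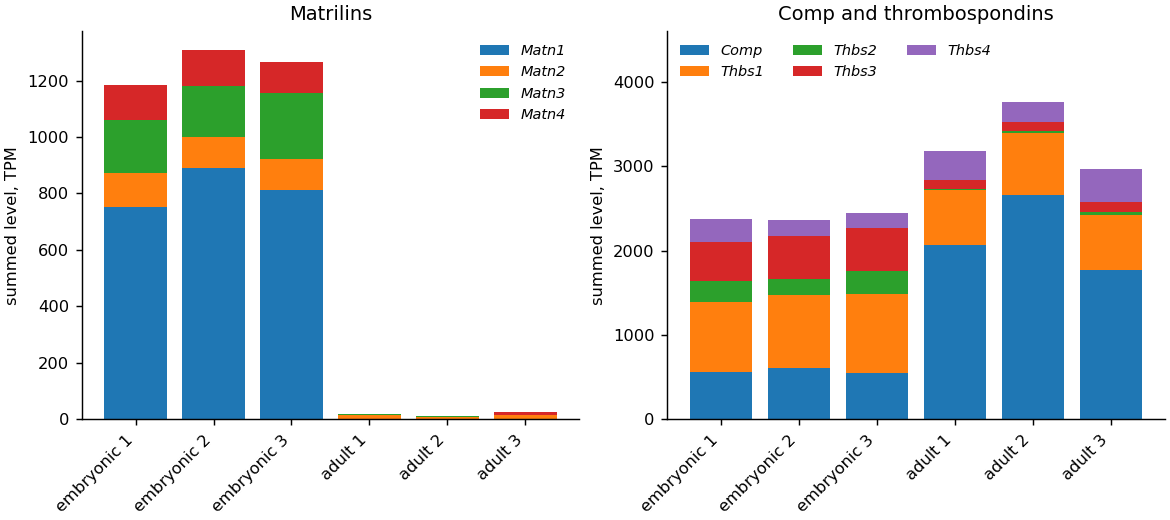
Summed TPM of the matrilins (left) and of *Comp* with the thrombospondins (right) in each sample, with each gene as a coloured part of the bar. The matrilin bars reach 1183 to 1310 TPM in the embryo and at most 27.7 TPM in the adult, while the bars on the right grow and are taken mostly by *Comp* in the adult.

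TPM is counted per length, so that levels can be ordered between genes within a stage. In the embryo the order was *Thbs1*, *Matn1*, *Comp*, *Thbs3*, *Thbs2*, *Thbs4*, *Matn3*, *Matn4* and *Matn2*, with means of 874, 819, 574, 495, 239, 212, 201, 121 and 112 TPM. The neighbours *Thbs1* and *Matn1* overlapped in their values, as did *Thbs2* with *Thbs4*, *Thbs4* with *Matn3* and *Matn4* with *Matn2*. In the adult *Comp* came first with a mean of 2164 TPM (SD 456, n = 3), followed by *Thbs1* at 682, *Thbs4* at 325 and *Thbs3* at 109 TPM, and no neighbours among these 4 overlapped. *Thbs2*, *Matn2*, *Matn4* and *Matn3* followed, each overlapping the next, at means of 23.5, 12.7, 5.62 and 2.2 TPM. The 9 genes thus ran from 112 to 874 TPM in the embryo and from 0 to 2164 TPM in the adult.

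**Figure D4:**
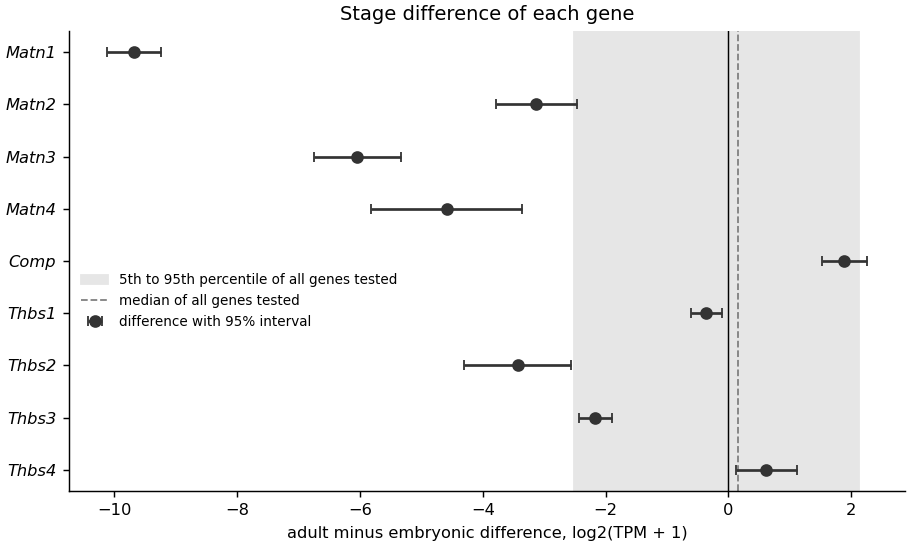
Adult minus embryonic difference of each gene on the log2(TPM + 1) scale with its 95% interval, beside the median (0.16) and the 5th to 95th percentile (-2.51 to 2.13) of all tested genes. The 4 matrilins and *Thbs2* lie below this band and the 4 other genes within it, and the value for *Matn1* is set by adult values listed at 0.

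The genes around the family were read from 5 lists. Each count is to be read beside all tested genes, of which 23.9% rose and 21.4% fell, with a median difference of 0.16. Of 12 matrix molecules to which these proteins bind, 2 rose and 7 fell, with a median difference of -1.22. *Col9a1* fell from 1933, 1913 and 1946 TPM to 64.3, 27.2 and 42.8 TPM and *Col9a2* by 2.93. They encode chains of type IX collagen, the fibril-associated collagen to which matrilin-3 and COMP bind. *Dcn*, encoding decorin, a small proteoglycan that links matrilins to collagen VI, rose from 217, 241 and 326 TPM to 6348, 5026 and 5549 TPM (limma adjusted p = 5.8e-07), and *Fn1*, encoding fibronectin, rose by 2.50. With quantile normalization 4 rose and 7 fell, and without the 20 highest genes 3 rose and 6 fell. Without adult replicate 1 all 12 passed, 5 higher and 7 lower.

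Of 13 thrombospondin receptors 4 rose and 5 fell, with a median of -0.52. The number that rose was 2 without embryonic replicate 1 and 2 without adult replicate 2, with 5 falling in both fits. *Lrp1*, an endocytic receptor that clears thrombospondins, rose from 272, 187 and 226 TPM to 896, 892 and 911 TPM (limma adjusted p = 1.9e-05). *Cd36*, encoding a receptor of the type 1 repeats, passed the threshold at low levels, with 0.784 to 1.23 TPM in the embryo and 3.19 to 5.48 TPM in the adult (limma adjusted p = 0.0265). The syndecan *Sdc1* fell by 2.12 and the laminin receptor subunit *Itga6* by 1.60. *Cd47*, a receptor of the carboxy-terminal domain of thrombospondin-1, was 0.53 lower without passing the threshold (limma adjusted p = 0.261).

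Of 10 genes for chaperones and glycosylation enzymes 4 rose and 3 fell, with a median of 0.34. The split turned with the scaling, to 3 higher and 4 lower under the median of ratios and to 5 higher and 2 lower under quantile normalization or without the 20 highest genes. *Pofut2*, encoding the enzyme that adds fucose to thrombospondin type 1 repeats, fell from 171, 153 and 191 TPM to 54.6, 49.4 and 70.2 TPM. *B3glct*, whose enzyme extends that fucose with glucose, rose from 10.5, 11.3 and 9.59 TPM to 19.5, 19 and 23.7 TPM (limma adjusted p = 0.0179). *P4hb*, a protein disulfide isomerase, fell by 1.16, and *Dnajb11*, a co-chaperone of BiP, rose by 0.65. The count of 7 was 4 without embryonic replicate 1 and 3 without embryonic replicate 3.

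Among 11 proteases known to cleave these proteins 9 were tested, 3 of which rose and 3 fell. *Adamts12*, whose enzyme cleaves COMP, fell from 39.3, 20.1 and 32.8 TPM to 0.644, 0.0834 and 0.86 TPM, and *Adamts7*, encoding another COMP-cleaving enzyme, was 0.18 lower without passing the threshold (limma adjusted p = 0.74). *Adamts1* fell by 2.38. *Adamts5*, an aggrecanase gene, rose by 2.39 and *Mmp13*, encoding collagenase-3, by 4.28, from 4.9, 7.8 and 14.4 TPM to 143, 179 and 226 TPM. The median of the list was 0.06 and took either sign under the other scalings, so no direction can be given. *Mmp13* was also counted among the hypertrophic chondrocyte markers, of which 4 of 5 tested rose and *Panx3* fell.

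Of 13 regulators 3 rose and 7 fell, with a median of -0.93, where 23.9% of all tested genes rose and 21.4% fell. *Sox9*, the chief transcription factor of the chondrocyte program, rose from 452, 392 and 465 TPM to 589, 901 and 656 TPM (limma adjusted p = 0.01), and *Sox5* by 0.62. *Sox6*, its partner gene, fell by 0.93. *Nfia* and *Nfib*, which encode nuclear factor I proteins, fell by 1.54 and 1.27. The other genes of that family on the list did not pass the threshold. *Nfic* was 0.18 higher (limma adjusted p = 0.478) and *Nfix* 0.29 lower (limma adjusted p = 0.0705). *Barx2* had the lowest difference, -2.54, with at most 10.5 TPM in any sample. Among the transforming growth factor beta genes *Tgfb1* rose by 1.31, while *Tgfb2* fell by 2.12 and *Tgfb3* by 2.37. *Nfia*, *Nfib*, *Nfic*, *Nfix*, *Sox5*, *Sox6* and *Tgfb2* are named after their values were seen.

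**Figure D5:**
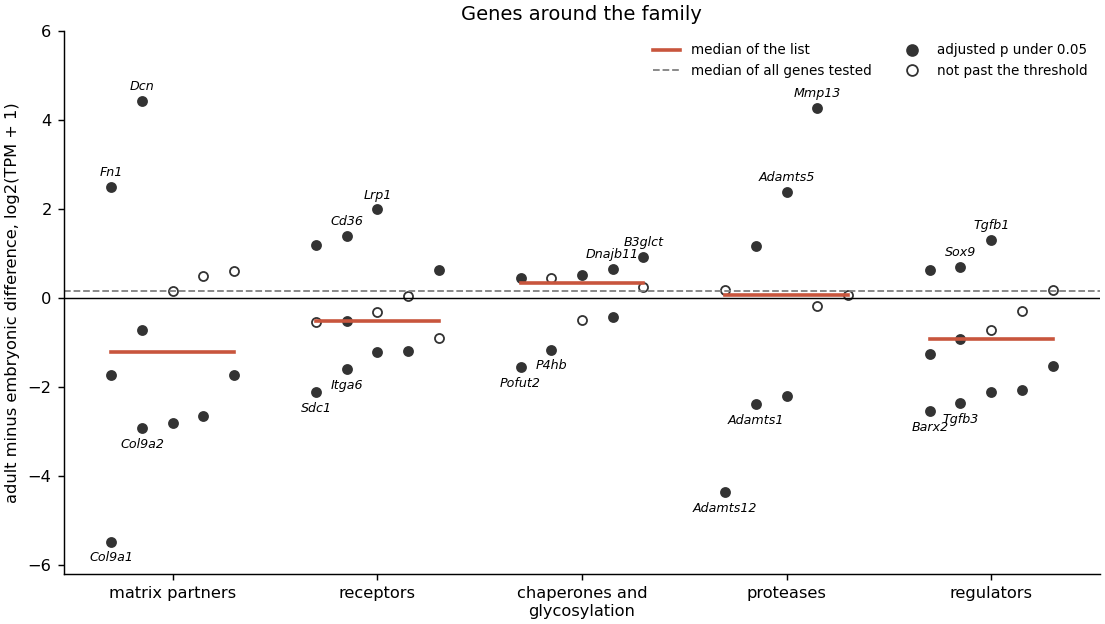
Adult minus embryonic difference on the log2(TPM + 1) scale of the tested genes of 5 lists, filled where the adjusted p was under 0.05, with the median of each list in red and that of all tested genes (0.16) as a dashed line. The matrix partners have the lowest median (-1.22), and every list holds genes of both directions.

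For each gene the most alike genes were sought by the root mean square distance of log2(TPM + 1), centred on the gene's mean, over the 6 samples. Since 6 samples in 2 stages carry little beyond the stage difference, the distance is a description. *Matn1* was closest to the histone genes *Hist1h2ap* and *Hist1h2af* (0.26 and 0.32), both listed at 0 in all adult samples members of a family of near-identical genes whose RNA mostly lacks poly(A), and then to *Dlk1* (0.52). *Matn4* was closest to *Col14a1*, encoding a collagen of the fibril surface (0.22), with 2.83, 6.85 and 16.1 TPM in the adult samples, which are ordered as those of *Matn4*. *Matn3* lay nearest to *Pcdh18* (0.26), *Matn2* to *Mpzl2* (0.14) and *Thbs2* to *Loxl1* (0.12), whose product takes part in the crosslinking of elastin. *Comp* was nearest to *Ank* (0.07), encoding a regulator of pyrophosphate export, at 114, 128 and 128 TPM in the embryo and 423, 538 and 383 TPM in the adult. The distances of *Thbs1*, *Thbs3* and *Thbs4* to their nearest genes were 0.05, 0.09 and 0.09.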

How the data were processed

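The library kit is given in different ways, as an mRNA-Seq kit of Kapa per the labels and as Nugen Ovation cDNA from random and poly(T) primers with a Kapa library kit in the study's methods, so that neither the use of strand nor the capture of RNA without poly(A) is settled. The authors sequenced single-end reads of 50 bases, mapped them to mouse GRCm38 with RefSeq annotations, estimated levels with RSEM (version not given in the sources used here) and deposited log2(TPM + 1) values per gene. TPM adds up to 1000000 in each sample and keeps no depth, so precision rests on 3 samples per stage. Genes were named by GENCODE M21 (21902 of 22032 identifiers). Adult was compared with embryonic by limma 3.58.1 in R 4.3.3 (trended eBayes) on the 13125 genes whose mean reached 1 TPM, with Benjamini-Hochberg adjustment over all of them and a threshold of 0.05. EBSeq, named in the study's methods, was not used here. The 9 genes and the lists were chosen with earlier results of these data known. All 9 genes are named, with at most 2 genes per direction of each list, the 3 nearest genes of each member and list genes named after their values were seen. The script was tested on simulated data. Alternatives were other pseudocounts, filters, scalings, variance models and thresholds, the replicate block and each sample left out. Tables used Python 3.11.15 and pandas 2.3.3.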

Additional observations from a re-analysis of the deposited data

How the results depend on the processing

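With an adjusted p under 0.01 in place of 0.05, 3718 of all genes passed in place of 5949, and 3 of the chaperone and glycosylation genes in place of 7. That list gave 4 genes when the trend of the variance was left out, and 3 to 8 when each sample was left out in turn. The count of the 9 genes lay between 7 and 9 under all alternatives, and leaving out samples gave 7 to 9. The calls of *Matn1*, *Matn2*, *Matn3*, *Matn4*, *Comp*, *Thbs2* and *Thbs3* held under all 16 alternatives. The replicate numbers are shared by the stages but name no common animal, and the deviations of same-numbered samples correlated at -0.00884, -0.0169 and -0.0223. With the replicate block 5430 genes and 8 of the 9 passed, as *Thbs1* did not (adjusted p = 0.0857), and the block gave 9 matrix partners, 8 receptors, 5 chaperone and glycosylation genes, 6 proteases and 10 regulators. *Thbs1* and *Thbs4* also did not pass without the trend (adjusted p = 0.13 and 0.119), and *Thbs4* not with a pseudocount of 0.1 (0.0539) or with no filter (0.0823). The cause of these changes was not tested. A TPM value carries no counting error, which limits what the low adult values of *Matn3* and *Matn4* can show.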
